A study of Mus musculus with 6 samples.

Results

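The transforming growth factor beta (TGF-beta) genes described here are 10 genes in 3 roles: the ligands Tgfb1, Tgfb2 and Tgfb3, the receptors Tgfbr1, Tgfbr2 and Tgfbr3, and the latent TGF-beta binding protein genes Ltbp1, Ltbp2, Ltbp3 and Ltbp4. They were taken by name from the 38924 genes of the count files, and each matched 1 Ensembl gene. RNA came from the front of the nasal septum, the cartilage plate that divides the nose, which was cut out by laser microdissection from frozen mouse heads at embryonic day 14.5. Cartilage of 3 Apert mice was set against that of 3 wild-type (WT) mice, all on the C57BL/6 strain with 1 library per mouse. Apert mice are labelled Fgfr2+/S252W; EIIA-Cre: they carry 1 copy of a mutant fibroblast growth factor receptor gene that models Apert syndrome, a human craniosynostosis disorder, and a Cre recombinase whose promoter acts in the early embryo. The WT mice are labelled WT, and the labels do not say whether they carry Cre. The question is which transcripts of this cartilage differ in level between mutant and WT mice.

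TGF-beta is made as a precursor that is cut by furin and stays bound to its own propeptide, which keeps it latent. Latent TGF-beta binding proteins tie that complex to fibrillin and fibronectin fibres of the matrix until integrins or proteases release the ligand. The freed ligand binds a pair of type II and type I kinase receptors, which phosphorylate SMAD2 and SMAD3. In cartilage the pathway is known for driving early chondrogenesis and for holding back hypertrophy.

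The RefSeq promoters of Tgfb1 and Tgfb2 (GRCm38.p6, 250 bases before to 50 after the transcription start) are shown first. A part of promoter letters in the levels of these genes was not tested. No Tgfb3 promoter is shown. Capitals mark matches on either strand to the GC box GGGCGG, the TATA box TATAAA and the E-box CACGTG, which do not overlap one another.
Tgfb1, chr7:25686752-25687051, plus strand: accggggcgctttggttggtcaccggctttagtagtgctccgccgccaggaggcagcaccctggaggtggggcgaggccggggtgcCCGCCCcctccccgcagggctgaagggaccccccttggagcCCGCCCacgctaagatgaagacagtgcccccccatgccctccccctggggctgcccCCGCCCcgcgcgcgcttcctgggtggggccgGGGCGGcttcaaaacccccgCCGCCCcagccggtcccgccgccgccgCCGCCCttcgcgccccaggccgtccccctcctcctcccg
Tgfb2, chr1:186705940-186706239, minus strand: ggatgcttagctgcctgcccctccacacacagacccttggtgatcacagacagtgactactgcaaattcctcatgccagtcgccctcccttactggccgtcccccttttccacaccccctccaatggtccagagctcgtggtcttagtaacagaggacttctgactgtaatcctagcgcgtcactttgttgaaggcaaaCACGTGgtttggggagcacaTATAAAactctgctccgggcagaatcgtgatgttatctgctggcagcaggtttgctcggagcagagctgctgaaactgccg
The Tgfb1 window held 77% G and C and 6 GC boxes, with no match to the TATA box or the E-box letters. The Tgfb2 window held 54.3% G and C, 1 TATA box starting at position -31 and 1 E-box starting at -51 from the transcription start, and no match to the GC box letters. Of 32851 RefSeq promoters of the same length, 35.7% held the GC box letters, 13.6% the TATA box and 7.15% the E-box. The cyclic AMP response element TGACGTCA and its half-site TGACG were also sought and are not in capitals. The half-site had 1 match in the Tgfb2 window, starting at -72, and 0 in the Tgfb1 window, and 20.8% of the promoters held it. The full element had 0 matches in either window, and 1.79% of the promoters held it. These matches describe the letters and were not tested as binding sites.

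The libraries held 6760510 to 10527915 counts in Apert and 8631181 to 10834744 in WT, and 8 of the 10 genes passed the filter on low counts that left 13333 genes for testing. Most chondrocyte markers were abundant in both genotypes: Col2a1, the main cartilage collagen, averaged 17512 CPM (counts divided by the scaled total of their library) in Apert and 19694 in WT. Comp, at 2.30 CPM in Apert and 2.99 in WT, and Snorc, at 0.456 in Apert and 1.58 in WT, were low. The summed level of 15 chondrocyte markers ran from 39344 to 42802 CPM in Apert and from 38362 to 49322 in WT. None of the 14 tested was called, and their median log2 fold change, Apert over WT, was -0.22. Sox9 was at -0.67 with no overlap of the groups (edgeR, adjusted p = 0.125) and Acan at -0.48 (adjusted p = 0.322). Col9a1, Col11a1 and Hapln1 went the other way, at 0.03, 0.19 and 0.17. The mitochondrial genome took 34.3% to 40.4% of counts in Apert and 28.8% to 30.2% in WT. The summed level of 14 markers of perichondrium and fibrous mesenchyme, the tissue around cartilage, was 4557 to 5279 CPM in Apert and 3451 to 3977 in WT, with none at 0. The 13 tested had a median log2 fold change of 0.53, and 2 of them (Col3a1 and Ogn) were called, where 0.45% of all tested genes were. Pdgfra, Dcn and Twist1 went the other way, at -0.17, -0.22 and -0.01, and Twist2 was too low for the test. Glial markers summed to 276 to 329 CPM in Apert and 364 to 433 in WT over 7 genes, with Foxd3 at 0. Markers of endothelium, macrophages, epithelium, neurons and muscle summed to under 20 CPM per list in every library, and those of red cells to 50.3 to 92.6 CPM. The part of these differences in the results was not tested.

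Within each role the highest levels in this cartilage were those of Tgfb2 and then Tgfb3 among the ligands, Tgfbr1 and Tgfbr2 among the receptors, and Ltbp3 and then Ltbp1 among the binding proteins. Levels between genes are given as RPKM (CPM per kilobase of exonic length) averaged over all 6 libraries. Tgfb2 was highest at 17.8 ± 2.93 RPKM, above 86.5% of all tested genes, followed by Tgfbr1 at 15.8 ± 1.69, Ltbp3 at 13.9 ± 3.07 and Tgfbr2 at 11.7 ± 1.79 RPKM (SD, n = 6). These 4 genes overlapped in level, and their order was not the same in both genotypes. Tgfb2 exceeded Tgfbr1 in 2 of 3 Apert and 3 of 3 WT libraries. Tgfbr1 exceeded Ltbp3 in 3 of 3 Apert and 1 of 3 WT libraries, with Ltbp3 at 11.7 ± 1.09 RPKM in Apert and 16.1 ± 2.87 RPKM in WT (SD, n = 3 each). Ltbp3 exceeded Tgfbr2 in 1 of 3 Apert and 3 of 3 WT libraries. Below them, Tgfbr2 exceeded Tgfb3 (7.09 ± 1.82 RPKM) in all 6 libraries, and Tgfb3 exceeded Ltbp1 (5.32 ± 0.954 RPKM) in 1 of 3 Apert and 3 of 3 WT libraries. Tgfbr3 (1.80 ± 0.267 RPKM) and Ltbp4 (1.79 ± 0.425 RPKM) lay together lower down when averaged over the 6 libraries. Tgfbr3 exceeded Ltbp4 in 3 of 3 Apert and 0 of 3 WT libraries. Tgfb1 and Ltbp2 came last, at 0.135 ± 0.069 and 0.0984 ± 0.0658 RPKM (SD, n = 6). In a bulk sample, fewer cells of a type and less RNA per cell cannot be told apart.

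**Figure D1:**
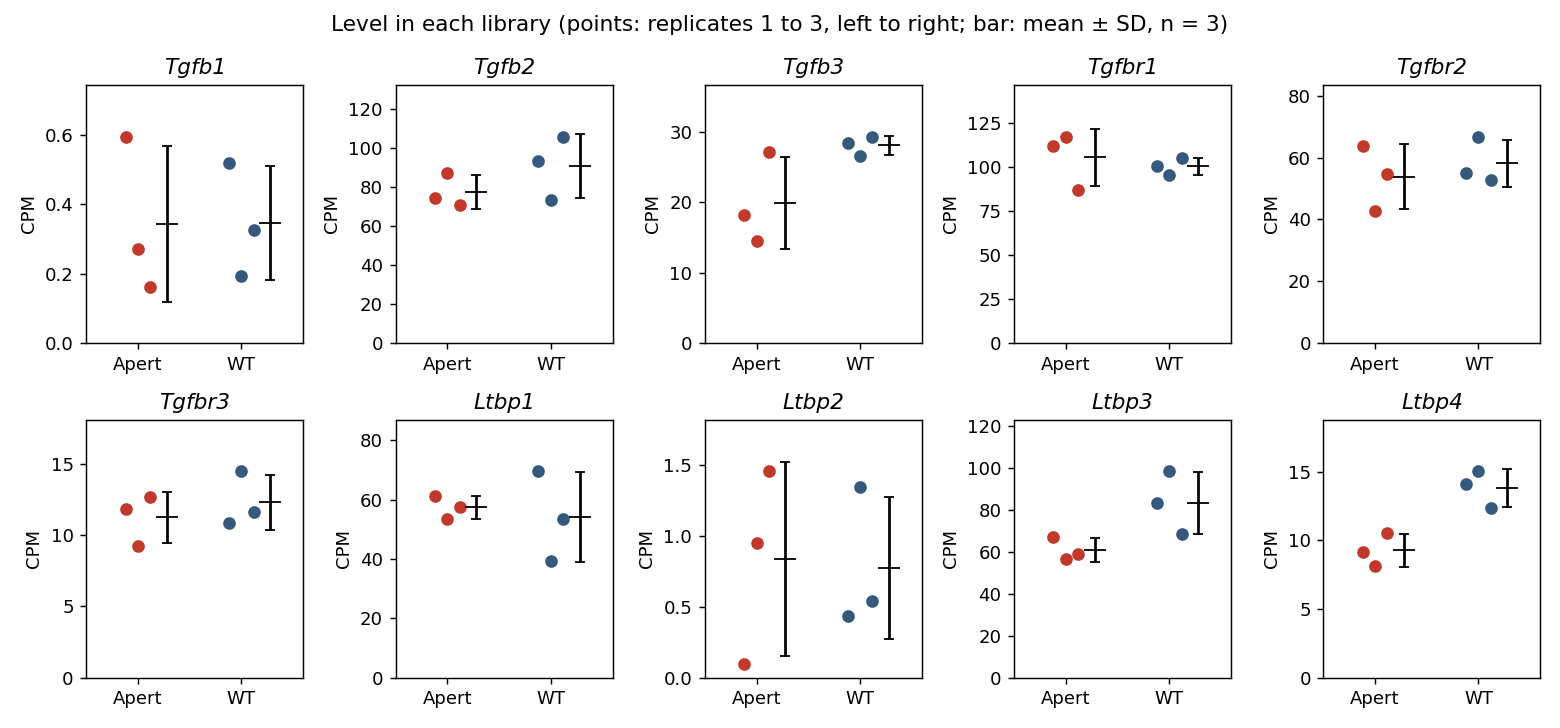
Level of each of the 10 genes in CPM (counts over the scaled library total, vertical axis from 0) in the 3 Apert libraries (left) and the 3 WT libraries (right); points are libraries and bars the mean ± SD. All 3 Apert libraries lie below all 3 WT libraries for Ltbp3 and Ltbp4, the groups overlap for the other 8 genes, and Tgfb1 and Ltbp2 stay below 2 CPM.

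None of the 8 tested genes passed the test over all genes between the genotypes (edgeR quasi-likelihood F test, Benjamini-Hochberg adjustment, smallest adjusted p = 0.306), where 0.45% of all tested genes were called. At an unadjusted p below 0.05 there were 3 of the 8 tested genes, all lower in Apert: Tgfb3, Ltbp3 and Ltbp4. The background at that level was 11.4% of all tested genes in either direction and 5.01% lower in Apert. For the 8 genes the median of the log2 fold changes, Apert over WT, was -0.18, against 0.01 over all tested genes, with 6 of the 8 below 0, as were 48.9% of all tested genes. Groups did not overlap for 2 of the 8, both lower in Apert, where 16.6% of all tested genes did not overlap and 7.68% did so with Apert lower.

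Among the ligands, Tgfb2, an isoform essential for heart and craniofacial development in mice, was at 74.3, 87.1 and 70.6 CPM in Apert replicates 1 to 3, against 93.2, 73.1 and 106 CPM in WT replicates 1 to 3. WT replicate 2 lay among the Apert libraries, so the groups overlapped. Apert over WT, the fitted log2 fold change came to -0.23, with standard error 0.17 and a 95% interval from -0.58 to 0.12 (edgeR, adjusted p = 0.654). It was -0.10 without WT replicate 3, -0.36 without WT replicate 2 and -0.39 with libraries scaled by totals alone (adjusted p = 0.911, 0.610 and 0.336).

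Tgfb3, the isoform whose loss leaves mouse palates cleft, was at 18.2, 14.4 and 27.1 CPM in Apert libraries, against 28.3, 26.6 and 29.3 CPM in WT libraries. The 3 WT libraries were close together, Apert replicates 1 and 2 lay well below them, and Apert replicate 3 lay within their range. This gave a log2 fold change of -0.51, with standard error 0.23 and a 95% interval from -0.99 to -0.02 (edgeR, unadjusted p = 0.0435, adjusted p = 0.426). It was -0.79 without Apert replicate 3 (adjusted p = 0.30) and -0.34 without Apert replicate 2 (adjusted p = 0.704), so the size rests on which Apert library is left in.

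Tgfb1, the isoform best known from blood, bone and wound tissue, had 6, 2 and 1 counts in Apert libraries and 6, 2 and 3 counts in WT libraries. It was detected in every library and was too low for the test. Levels came to 0.343 ± 0.225 CPM in Apert and 0.346 ± 0.165 CPM in WT (SD, n = 3 each), where 1 count was worth 0.0923 to 0.148 CPM before TMM scaling, so no difference was detectable at this depth.

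As shares of the 3 ligands' summed RPKM, Tgfb2 made up 73.2% ± 7.95 in Apert and 69.2% ± 2.89 in WT, and Tgfb3 26.2% ± 8.08 in Apert and 30.3% ± 2.97 in WT (SD, n = 3 each; two-sided exact permutation p = 0.5 for both, 0.7 adjusted over the 10 shares tested). Tgfb1 made up 0.611% ± 0.427 in Apert and 0.483% ± 0.209 in WT (SD, n = 3 each; exact permutation p = 0.7, adjusted 0.7). Tgfb3 took its smallest share, 18.7%, in Apert replicate 2 and its largest, 34.8%, in Apert replicate 3, and the difference of its share, Apert minus WT, was -0.38 percentage points without the first of these and -8.41 without the other. The summed ligand level was 22.4 ± 0.918 RPKM in Apert and 27.6 ± 3.93 RPKM in WT (SD, n = 3 each), with the Apert libraries between 21.3 and 23.0 and the WT libraries between 23.4 and 31.2.

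No receptor gene had an unadjusted p below 0.05, and for all 3 the groups overlapped. Tgfbr1, which encodes the type I kinase receptor, was at 112, 117 and 87.2 CPM in Apert libraries, against 101, 95.5 and 105 CPM in WT libraries. The WT libraries lay inside the range of the Apert libraries. Its log2 fold change, 0.07 with standard error 0.15, had a 95% interval from -0.25 to 0.39 (edgeR, adjusted p = 0.899), and its sign depended on the scaling: it was -0.08 with libraries scaled by totals alone and -0.13 after correction for GC content.

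Tgfbr2, the type II receptor gene that binds ligand first, was at 63.9, 42.9 and 54.8 CPM in Apert libraries, against 55.1, 66.9 and 52.7 CPM in WT libraries. The groups overlapped, with the lowest value in Apert replicate 2 and the highest in WT replicate 2. Tgfbr2 thus had a fitted log2 fold change of -0.11 (standard error 0.18, 95% interval -0.50 to 0.27; edgeR, adjusted p = 0.868), and it was 0.02 without Apert replicate 2.

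Tgfbr3 encodes betaglycan, a co-receptor that presents TGF-beta, above all the TGF-beta 2 isoform, to the kinase receptors. It was at 11.8, 9.25 and 12.6 CPM in Apert libraries, against 10.8, 14.5 and 11.6 CPM in WT libraries, with overlapping groups. Fitted over all genes, it had -0.13 on the log2 scale (standard error 0.27, 95% interval -0.69 to 0.43; edgeR, adjusted p = 0.897), and it was 0.00 without WT replicate 2.

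Per length, Tgfbr1 exceeded Tgfbr2 in every library, by 1.49 ± 0.455 times in Apert and 1.28 ± 0.213 times in WT, and Tgfbr2 exceeded Tgfbr3 by 6.56 ± 0.762 times in Apert and 6.50 ± 0.397 times in WT (SD, n = 3 each). The 3 receptors summed to 29.1 ± 2.87 RPKM in Apert and 29.4 ± 1.21 RPKM in WT (SD, n = 3 each), and the Apert libraries spanned the WT ones. Their shares of that sum gave exact permutation p of 0.6 for Tgfbr3 and 0.7 for both Tgfbr1 and Tgfbr2 (adjusted 0.7 for each).

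Among the latency protein genes were the 2 of the 10 genes whose groups did not overlap, Ltbp3 and Ltbp4. Ltbp3, which escorts TGF-beta through secretion and is needed for normal skull and tooth growth in mice, was at 67.3, 56.5 and 59.0 CPM in Apert libraries, against 83.2, 98.5 and 68.7 CPM in WT libraries. All 3 Apert libraries lay below all 3 WT libraries, with a narrow gap between Apert replicate 1 and WT replicate 3. Its log2 fold change came to -0.45, with standard error 0.17 and a 95% interval from -0.81 to -0.10 (edgeR, unadjusted p = 0.0151, adjusted p = 0.306). Leaving out 1 library at a time gave -0.57 to -0.32 (adjusted p from 0.127 to 0.727). Of the 5190 exonic bases of Ltbp3, 106 are not unique to it, and fragments there could not be assigned.

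Ltbp4, an elastic fibre protein that binds the TGF-beta 1 complex, was at 9.13, 8.16 and 10.5 CPM in Apert libraries, against 14.1, 15.0 and 12.3 CPM in WT libraries. The groups did not overlap. On the log2 scale the difference was -0.58, with standard error 0.26 and a 95% interval from -1.13 to -0.03 (edgeR, unadjusted p = 0.0400, adjusted p = 0.417), and leaving out 1 library at a time gave -0.68 to -0.51 (adjusted p from 0.342 to 0.733).

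Ltbp1, which binds latent TGF-beta covalently and anchors it in the matrix, was at 61.3, 53.5 and 57.4 CPM in Apert libraries, against 69.5, 39.4 and 53.5 CPM in WT libraries. The Apert libraries were close together and lay inside the WT range. A log2 fold change of 0.08 was fitted (standard error 0.19, 95% interval -0.33 to 0.49; edgeR, adjusted p = 0.913), with a negative sign, -0.08, when libraries were scaled by totals alone and, at -0.10, without WT replicate 2.

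Ltbp2, a relative that binds fibrillin but not TGF-beta, had 1, 7 and 9 counts in Apert libraries and 5, 14 and 5 counts in WT libraries and was too low for the test. It shares 764 of its 8184 exonic bases with D030025P21Rik, so part of this small count is uncertain.

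The 4 binding proteins summed to 18.7 ± 1.44 RPKM in Apert and 23.5 ± 2.75 RPKM in WT (SD, n = 3 each), with the Apert libraries from 17.4 to 20.2 and the WT libraries from 20.3 to 25.2. Within that sum Ltbp1 took 29.2% ± 0.266 in Apert and 22.2% ± 6.38 in WT, Ltbp3 62.6% ± 1.55 in Apert and 68.3% ± 6.04 in WT, and Ltbp4 7.66% ± 0.943 in Apert and 9.13% ± 0.318 in WT (SD, n = 3 each). For each of these 3 shares the groups did not overlap (two-sided exact permutation p = 0.1, the smallest that 3 against 3 libraries can give, and 0.333 adjusted over the 10 shares). The gap was narrow for Ltbp3, with 64.0% in Apert replicate 1 and 64.4% in WT replicate 1. It was narrow for Ltbp4 too, with 8.74% in Apert replicate 3 and 8.78% in WT replicate 1. The shares of a library are parts of the same sum, so these 3 differences depend on one another. No GC correction was applied to the shares. WT replicate 2 had the lowest Ltbp1 share, 14.9%. Without it the difference of the Ltbp1 share, Apert minus WT, was 3.35 percentage points in place of 7.002, and that of the Ltbp3 share -2.22 in place of -5.70. Ltbp2 took 0.562% ± 0.458 in Apert and 0.397% ± 0.229 in WT (SD, n = 3 each; exact permutation p = 0.6, adjusted 0.7).

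**Figure D2:**
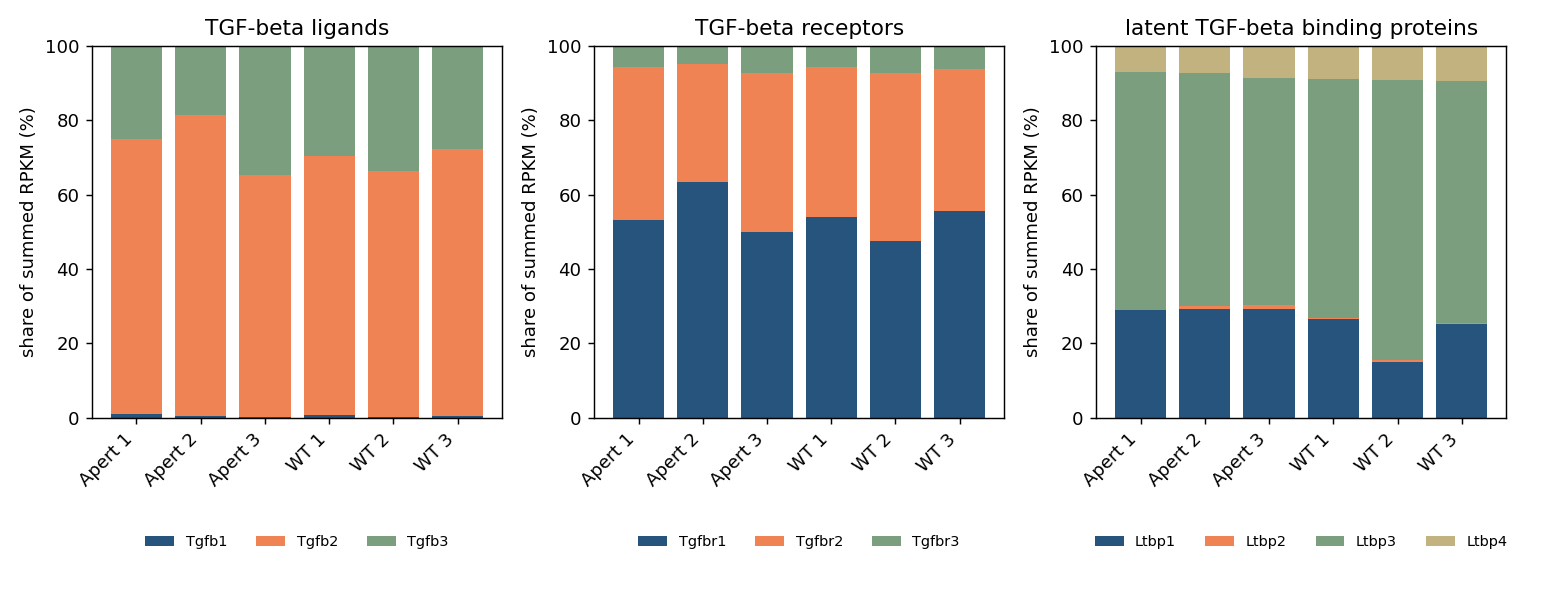
Share of each gene (percent of the summed RPKM of its role, vertical axis from 0 to 100) among ligands, receptors and latent TGF-beta binding proteins in the 3 Apert libraries (left bars) and the 3 WT libraries (right bars). Tgfb2 and Ltbp3 fill most of their panels in every library, Tgfb1 and Ltbp2 are thin slivers, and the Ltbp1 share is smallest in WT replicate 2.

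The differences of the tested genes are set here beside the GC content of their transcripts, and a part of GC content in them was not tested. Ltbp4 (62.2% GC) and Ltbp3 (58.3%) had the highest GC content of the 8 tested genes, and Tgfbr1 (41.0%) the lowest. Tested genes within 1 percentage point of the GC content of Ltbp4 had a median of -0.42 (log2, Apert over WT) over 139 genes, and those within 1 point of Ltbp3 had -0.28 over 707 genes. Genes near Tgfb3 (53.0% GC) had a median of -0.12 over 1311 genes and those near Tgfbr1 0.19 over 901 genes. Ltbp1, at 52.7% GC close to Tgfb3, had 0.08 where its 1326 neighbours had a median of -0.11, and Tgfb2, at 46.9% GC, had -0.23 where its 1499 neighbours had 0.07. After a smooth correction for GC content in each library, Ltbp3 was at -0.16 on the log2 scale (standard error 0.16, edgeR adjusted p = 0.880) and Ltbp4 at -0.21 (standard error 0.26, adjusted p = 0.919). Tgfb3 was at -0.38 (standard error 0.23, adjusted p = 0.757), Tgfb2 at -0.28 and Ltbp1 at 0.19, and none of the 8 genes had an unadjusted p below 0.05. Without mitochondrial genes the values were -0.46 for Ltbp3, -0.59 for Ltbp4 and -0.51 for Tgfb3.

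**Figure D3:**
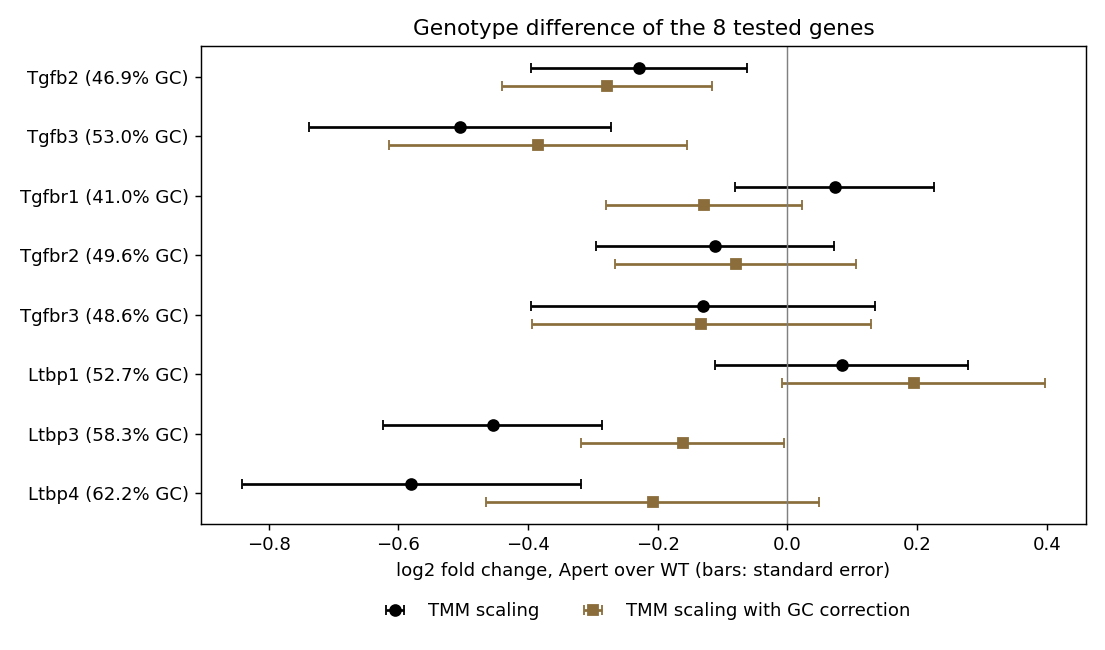
Log2 fold change, Apert over WT (horizontal axis), of the 8 tested genes with TMM scaling alone (circles) and with an added GC correction (squares); bars are standard errors and the GC content of the longest transcript stands beside each name. Ltbp3 and Ltbp4 lie at -0.45 and -0.58 without the correction and at -0.16 and -0.21 with it.

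Ltbp3 had the smallest p of the 8 tested genes. The genes whose log2 CPM followed it most closely over the 6 libraries were Ywhag, a 14-3-3 adaptor protein gene (Pearson r = 0.994), Aup1, a lipid droplet and protein degradation factor (r = 0.992), and Nudt16l1 (r = 0.989). These values describe 6 libraries that share scaling and composition: 84 of 13191 genes had r above 0.95.

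Of 58 other genes of the pathway in 4 lists, 52 were tested and none was called by the edgeR test reported here, with 8 at an unadjusted p below 0.05 (2 higher and 6 lower in Apert). At that level 6.35% of all tested genes were higher and 5.01% lower. The 52 had a median of 0.01 on the log2 scale, as had all tested genes. Other fits called up to 3 of them: Aspn, Emilin1 and Tgm2 without the filter on low counts, and Emilin1 with DESeq2. Aspn and Emilin1 were called without Apert replicate 1 and with a block for replicate number, and Aspn with that block and GC correction.

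Genes that process, anchor or release latent TGF-beta had 17 of 19 tested, a median of -0.05 and 5 lower at an unadjusted p below 0.05. Emilin1, a matrix glycoprotein that holds back processing of the TGF-beta precursor, was at 68.1, 40.8 and 42.8 CPM in Apert libraries, against 84.2, 88.8 and 72.5 CPM in WT libraries, with no overlap. This came to -0.69 on the log2 scale, with standard error 0.19 (edgeR, adjusted p = 0.147), and to -1.0 without Apert replicate 1 (adjusted p = 0.00858). It was called without the low-count filter (adjusted p = 0.0130) and with DESeq2 (0.0464), and was at -0.35 after GC correction (adjusted p = 0.724). With a block for replicate number Emilin1 was called in edgeR (adjusted p = 0.0382), and with that block and GC correction it was not (0.447). Tgm2, a transglutaminase that cross-links binding proteins into the matrix and shares exons with Rprd1b and Gm20412, was at -0.60 (adjusted p = 0.303). It was at -0.27 without WT replicate 2 and at -0.32 after GC correction. The proteases Bmp1 and Mmp2 were at -0.57 (adjusted p = 0.376) and -0.42 (adjusted p = 0.403), and at -0.34 and -0.22 after GC correction, and Mmp2 was at -0.20 without Apert replicate 2. Furin was the remaining one, at -0.49 (adjusted p = 0.434).

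Receptor partners and proteins that bind TGF-beta outside the cell had 11 of 12 tested, a median of 0.16, and the 2 genes of the pathway that were higher at an unadjusted p below 0.05. Both encode small leucine-rich proteoglycans. Fmod and Dcn, also of that family and in this list, went the other way, at -0.50 and -0.22 (edgeR, adjusted p = 0.661 and 0.94). Aspn was at 29.9, 57.4 and 77.9 CPM in Apert libraries, against 10.8, 30.5 and 22.5 CPM in WT libraries. Apert replicate 1 fell just below WT replicate 2, so the groups overlapped by a small amount. The fitted difference was 1.37 on the log2 scale, with standard error 0.33 (edgeR, adjusted p = 0.0834). Aspn was called without Apert replicate 1 (adjusted p = 0.00649) and without the low-count filter (1.8e-07), and was not called with DESeq2 (0.225) or after GC correction, at 1.05 (0.338). With a block for replicate number it was called in edgeR both without GC correction (adjusted p = 7.8e-04) and with it, at 1.08 (0.0232). Bgn was at 865, 846 and 721 CPM in Apert libraries, against 521, 717 and 555 CPM in WT libraries. The groups did not overlap, and the log2 fold change was 0.44 (standard error 0.15, adjusted p = 0.234) and 0.52 after GC correction. The summed level of the fibrous mesenchyme markers was higher in the Apert libraries, though not that of every marker, as given above. The part of these markers in the values of Aspn and Bgn was not tested. The endoglin gene Eng, which shares exons with Ak1 and Fpgs, was at 0.50 (adjusted p = 0.475) and 0.78 after GC correction. Strap, a WD40 protein that binds the receptors, was at 0.38 (adjusted p = 0.495) and at 0.064 without Apert replicate 1.

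SMAD transducers and their regulators had all 13 tested, none at an unadjusted p below 0.05, and a median of -0.01. Smad3, a receptor-activated SMAD, was at 72.8 ± 15.9 CPM in Apert and 91.4 ± 9.20 CPM in WT (SD, n = 3 each; log2 fold change -0.33, edgeR adjusted p = 0.497). The deubiquitinase gene Usp15 was at 0.39 (adjusted p = 0.465) and the corepressor genes Tgif1 and Tgif2 at -0.41 (adjusted p = 0.601) and -0.30 (adjusted p = 0.682). Tgif2 was at -0.048 without WT replicate 1. The other receptor-activated SMAD gene, Smad2, was at 0.15 and the shared partner Smad4 at -0.01.

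TGF-beta response genes had 11 of 14 tested and a median of -0.13. Vasn, which encodes a TGF-beta trap and shares exons with Dnaja3, was the one gene of this list at an unadjusted p below 0.05, at -0.39 (adjusted p = 0.412) and -0.12 after GC correction. The transcription factor gene Klf10 was at 5.88 ± 2.02 CPM in Apert and 3.51 ± 0.732 CPM in WT (SD, n = 3 each; log2 fold change 0.75, adjusted p = 0.515). Tsc22d1 was at -0.14 (0.12 after GC correction) and Acta2, smooth muscle actin, at 0.52 (standard error 0.67, adjusted p = 0.821; 0.085 without WT replicate 3 and 0.091 without Apert replicate 3). Ccn2, a connective tissue growth factor strongly expressed in cartilage, was at 312 CPM in Apert and 293 CPM in WT (log2 fold change 0.09). The transcription factor gene Junb had no count in any library.

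**Figure D4:**
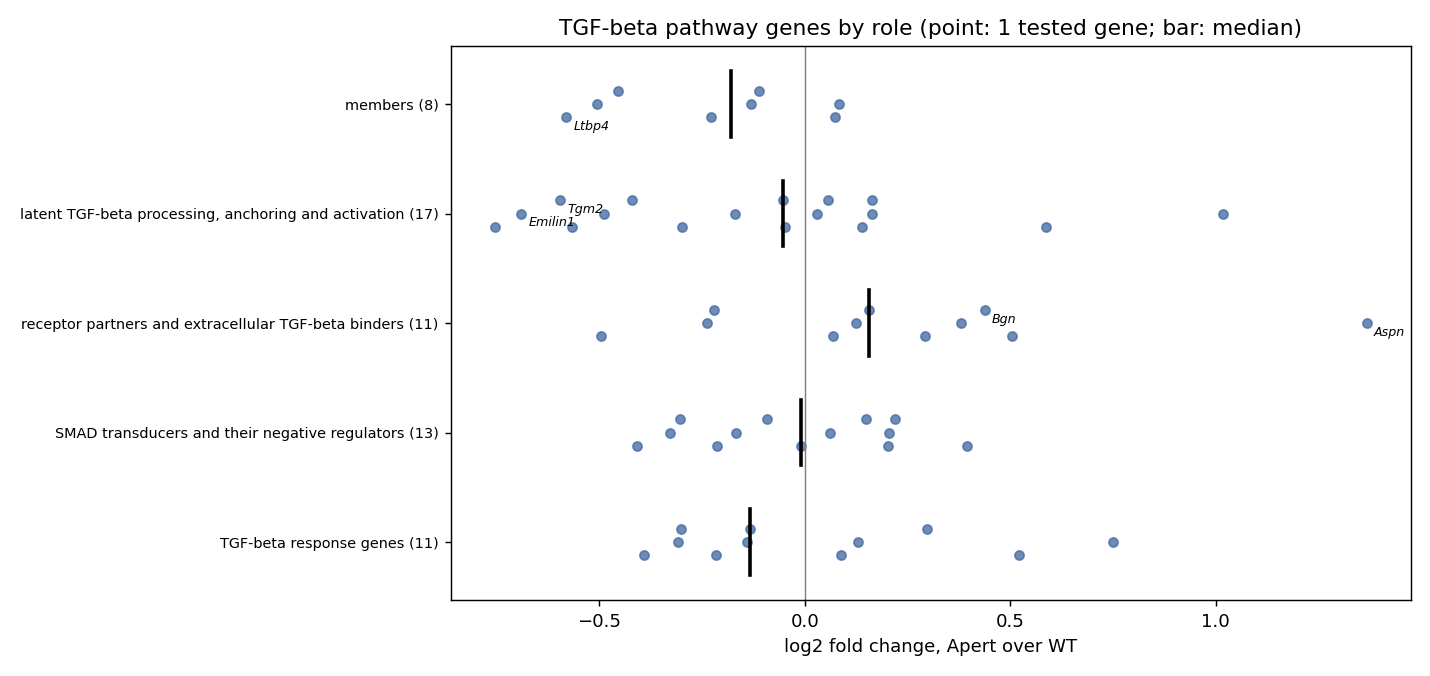
Log2 fold change, Apert over WT (horizontal axis), of each tested gene among the 8 tested ligands, receptors and binding proteins (labelled members) and the 4 other pathway lists; points are genes, bars are list medians and the number tested stands beside each name. Medians run from -0.18 to 0.16, and Aspn, at 1.37, lies farthest to the right.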

How the data were processed

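The authors deposited whole-number fragment counts per Ensembl gene, made with featureCounts 1.4.4 over exons, without strand, on Ensembl gene models of mm10, per the file headers. The submitters' processing notes also name cutadapt and STAR 2.5.2b. Libraries were amplified from 15 ng of RNA and read as 100 bp pairs, per the labels' protocols. No molecular identifiers are described, so counts may include amplified copies of the same molecule. The standard errors of the fit rest on the spread between libraries of a group as well as on counting error. Symbols were matched by identifier for 37607 of 38924 genes. Counts were tested in R 4.3.3 with edgeR 4.0.16 (filterByExpr, TMM, quasi-likelihood F test, Benjamini-Hochberg over all 13333 genes, threshold 0.05) and limma 3.58.1, DESeq2 1.42.0 and mgcv 1.9.3 as alternatives. CPM uses TMM-scaled totals, RPKM the files' exonic length. Standard errors are the log2 fold change over the square root of F. GC content came from the longest GENCODE M21 transcript (13192 tested genes), fitted as a smooth per library and entered as an offset. The fit was tested on simulated data over 13040 genes. It recovered 33.3% of 2-fold and 65.2% of 4-fold decreases in Apert, against 54% of 2-fold and 90% of 4-fold increases. Smaller changes were not simulated. No deposited per-sample count column was left unused. The genes and lists were chosen with earlier results of these data known. All 10 genes are named; each pathway list gives any called gene and up to 4 others with the smallest p and a mean of at least 1 CPM. Furin, Fmod, Dcn, Smad2, Smad4, Ccn2 and Junb were named after their values were seen. No label ties libraries of the same replicate number to 1 litter or day, so the fit without a block is reported. The series' design text describes separate mice.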

Additional observations from a re-analysis of the deposited data

How the results depend on the processing

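None of the genes that could be tested among the 10 was called under any of the 16 alternatives, and Tgfb2, Tgfb3, Ltbp3 and Ltbp4 were lower in Apert in all 16. Genes called over the whole table, 60 in the fit reported, numbered 247 without the low-count filter (154 higher and 93 lower in Apert), 204 with DESeq2 (143 and 61), 172 with the replicate block (128 and 44) and 5 with GC correction; leaving out 1 library gave 0 to 229 (0 without WT replicate 3, with 1376 genes at an unadjusted p below 0.05). Totals-only scaling called 17 higher and 24 lower in place of 53 and 7, and moved the median of all genes to -0.15. Pathway genes called, 0 in the fit reported, numbered 3 without the filter, 1 with DESeq2, 2 with the replicate block (Aspn, adjusted p = 7.8e-04, and Emilin1, 0.0382), 1 with the block and GC correction (Aspn, 0.0232), and 0 to 2 with 1 library left out; the cause was not tested. Between libraries of equal replicate number, deviations from the group means correlated at 0.19, 0.02 and 0.09 for numbers 1 to 3. Unequal numbers gave -0.15 to 0.07. Libraries of numbers 1 and 3 correlated best with their own number, and those of number 2 did not. Whether the libraries are paired was not tested. Signs turned for genes near 0. Tgfbr1 was -0.080 with totals only, -0.13 with GC correction, -0.14 with the block and GC correction, and -0.017 to 0.18 with libraries left out. Tgfbr2 ran from -0.29 to 0.020, Tgfbr3 from -0.23 to 0.0018 and Ltbp1 from -0.10 to 0.31 with libraries left out, and Ltbp1 was -0.076 with totals only. Tsc22d1 was 0.12 with GC correction, also with the block. With libraries left out, differences of shares ran from -0.85 to 5.89 percentage points for Tgfbr1, -4.81 to 0.81 for Tgfbr2, -1.08 to 0.042 for Tgfbr3, -0.11 to 0.30 for Tgfb1, 0.18 to 8.11 for Tgfb2, -8.41 to -0.38 for Tgfb3 and -0.032 to 0.42 for Ltbp2. Depth limits Tgfb1 and Ltbp2 to counts of at most 14 per library.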
